A study of Mus musculus with 4 samples.

Results

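The Ly6 antigens are small, cysteine-rich proteins that are held on the outer cell membrane by a glycosylphosphatidylinositol (GPI) anchor, and most of their mouse genes lie in a cluster on chromosome 15. The set described here was taken by gene symbol and is not the whole family: Ly6a, Ly6c1, Ly6c2, Ly6d, Ly6e, Ly6k and Thy1, which are 7 of the 23285 genes in the per-library table. All 7 symbols were found. They were chosen by their FPKM levels and genotype differences in these same 4 libraries, so those values are a description, and nothing is read from whether a genotype fit called a member. Thy1 encodes the pan-T-cell antigen Thy-1 (CD90), a GPI-anchored protein of the immunoglobulin fold rather than of the Ly6 fold, and its gene lies on chromosome 9. Ly6 antigens have long served to sort blood cells: Ly6a encodes Sca-1, a marker of haematopoietic stem cells, Ly6c1 and Ly6c2 encode the Ly-6C antigens of monocytes and T cells, Ly6d encodes the ThB antigen of thymocytes and early B-lineage cells, and Ly6e encodes thymic shared antigen 1, present on immature thymocytes. Ly6k is best known from the testis, where it takes part in sperm function. Ly6a, Ly6c and Ly6e genes are also known to respond to interferons.

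The libraries were made from DN3 thymocytes, immature T cell precursors that carry CD25 but neither CD4 nor CD8 and are rearranging the T cell receptor beta locus. The groups compared were cells from donors labelled as a Gata3(g/g) hypomorph, a name for reduced function of the T-lineage transcription factor GATA3, and cells from wild-type (WT) donors, with 2 libraries each, all labelled C57BL/6. Fetal liver cells of either genotype had been injected into irradiated recipient mice and DN3 cells were sorted 16 weeks later in both groups; the separation of donor cells from any remaining host cells, and the recipients' age and genotype, are not given in the labels. Replicate 1 of both genotypes shared a sequencing run (run 1), as did replicate 2 (run 2). A difference between runs therefore cannot be told apart from a difference between replicate samples. Nothing in the labels says that replicates came from separate animals, so every error below covers the spread between these samples, which may be technical.

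Libraries held 14331705 to 26901913 fragments assigned to genes. Gata3 itself measured 120 and 96.1 FPKM (fragments scaled by transcript length and library size) in libraries labelled Gata3(g/g), against 62.4 and 58.5 FPKM in the WT libraries, so the transcript was higher and not lower in the group labelled as hypomorphic, and directions below rest on the labels. The 10 DN3 markers examined summed to 3451 to 3600 FPKM in libraries labelled Gata3(g/g) and 3105 to 3252 FPKM in WT libraries. By edgeR with the block 2 of the 10 were higher, 0 were lower and the list median was -0.01. The higher ones were Il2ra, which encodes CD25 (log2 fold change 0.98 ± 0.181, SE, and adjusted p = 0.00262 from edgeR's fit with the block), and Dtx1, a target of Notch signalling (0.98 ± 0.128, SE, and adjusted p = 0.000109 from that fit), and their part in the differences below was not tested. The 6 natural killer and innate lymphoid markers summed to at most 0.819 FPKM in any library. Erythroid markers separated the runs: the 7 genes summed to 460 to 588 FPKM in run 2 and to 1.35 to 2.33 FPKM in run 1. In each run the higher sum was that of the library labelled Gata3(g/g). For genotype, 1 of the 6 tested was higher and 0 lower by edgeR with the block (list median 0.24), where DESeq2 and limma with the block called 0.

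Ly6c1 and Ly6c2 have near-identical coding sequences. Coding stretches are shown because few coding bases tell the pair apart, and their untranslated exons were not compared. Aligned over 393 coding bases of the principal transcripts (GENCODE M21, mm10, chromosome 15, minus strand, stop codon left out), 384 bases (97.7%) were identical and 9 differed. Coding bases 1 to 300 of both are printed 5′ to 3′, and capitals mark the 7 bases in them that differ between the pair.
Ly6c1: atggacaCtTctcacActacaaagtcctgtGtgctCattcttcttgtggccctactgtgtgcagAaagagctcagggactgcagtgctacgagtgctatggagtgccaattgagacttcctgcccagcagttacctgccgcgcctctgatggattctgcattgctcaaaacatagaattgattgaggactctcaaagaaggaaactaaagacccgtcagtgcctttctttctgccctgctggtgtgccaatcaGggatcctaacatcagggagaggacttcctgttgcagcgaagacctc
Ly6c2: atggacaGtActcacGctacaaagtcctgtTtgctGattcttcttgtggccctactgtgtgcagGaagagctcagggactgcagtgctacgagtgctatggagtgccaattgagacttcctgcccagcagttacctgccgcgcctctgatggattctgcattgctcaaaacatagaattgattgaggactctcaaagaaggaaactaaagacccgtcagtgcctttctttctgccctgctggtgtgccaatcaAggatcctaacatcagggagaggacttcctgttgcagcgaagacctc
Of 344 windows of 50 bases in the Ly6c1 coding sequence, 162 (47.1%) occurred unchanged in Ly6c2, and of 294 windows of 100 bases, 89 (30.3%) did. No source used here gives the read length or the treatment of reads that map to several places, so the split between these genes is uncertain. Among the members compared, Ly6a is the next closest. Its 402 coding bases were 81.8% identical to Ly6c1 over the alignment and 81.6% identical to Ly6c2, and of its 353 windows of 50 bases 0 occurred in Ly6c1 and 3 in Ly6c2. Its coding bases 1 to 300 follow, with capitals for bases that differ from or have no partner in Ly6c1.
Ly6a: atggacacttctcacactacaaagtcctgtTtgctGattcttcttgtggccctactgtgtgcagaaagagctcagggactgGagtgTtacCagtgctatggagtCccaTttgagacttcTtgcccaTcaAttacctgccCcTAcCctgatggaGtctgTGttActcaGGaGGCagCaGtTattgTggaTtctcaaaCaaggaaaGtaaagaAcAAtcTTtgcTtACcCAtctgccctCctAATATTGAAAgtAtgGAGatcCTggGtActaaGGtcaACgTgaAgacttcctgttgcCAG
The other members were far apart in sequence, with pairwise identities of 47.0% to 53.4% for every pair that involves Ly6d, Ly6e, Ly6k or Thy1.

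The ThB antigen gene Ly6d and the Sca-1 gene Ly6a stood higher in every library labelled Gata3(g/g) than in any WT library. Ly6d (chromosome 15, 74762056 to 74763567, mm10) measured 608 and 649 FPKM in libraries labelled Gata3(g/g), against 290 and 251 FPKM in the WT libraries. Group values averaged 628 ± 29.4 FPKM in libraries labelled Gata3(g/g) and 271 ± 27.8 FPKM in WT libraries (SD, n = 2 each). The groups did not overlap, and their ratio was 2.09 in run 1 and 2.59 in run 2. By edgeR with the replicate block, a term for the shared sequencing run, the log2 fold change was 1.22 ± 0.142 (SE); a positive value means higher in libraries labelled Gata3(g/g). By FPKM, Ly6d was the most abundant member in libraries labelled Gata3(g/g) and the third most abundant in WT.

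Ly6a (chromosome 15, 74994877 to 74997888) measured 51.0 and 62.1 FPKM in libraries labelled Gata3(g/g), against 24.4 and 30.3 FPKM in the WT libraries. All libraries labelled Gata3(g/g) lay above all WT libraries, with ratios of 2.09 in run 1 and 2.05 in run 2. The log2 fold change with the block was 1.05 ± 0.138 (SE), from 546 to 1797 fragments per library. In run 1 Ly6a and Ly6d had the same ratio, although Ly6d was much more abundant.

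Ly6e, the thymic shared antigen gene (chromosome 15, 74955051 to 74959905), was abundant and even across the libraries. It measured 313 and 342 FPKM in libraries labelled Gata3(g/g), against 284 and 311 FPKM in the WT libraries. The groups did not overlap, but by little, and the log2 fold change with the block was 0.14 ± 0.164 (SE), smaller than its error. Its highest library was 1.20 times its lowest.

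Thy1 (chromosome 9, 44043384 to 44048579) differed more between runs than between genotypes. It measured 339 and 520 FPKM in libraries labelled Gata3(g/g), against 372 and 640 FPKM in the WT libraries. The genotypes overlapped, while within each run the library labelled Gata3(g/g) was the lower of the pair. The log2 fold change for genotype with the block was -0.21 ± 0.169 (SE).

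Ly6c1 (chromosome 15, 75044018 to 75048837) was the steadiest member, with its highest library 1.15 times its lowest. It measured 11.7 and 11.3 FPKM in libraries labelled Gata3(g/g), against 12.1 and 13.0 FPKM in the WT libraries. The groups did not overlap, with libraries labelled Gata3(g/g) lower, but the log2 fold change with the block was -0.14 ± 0.193 (SE). Its near copy Ly6c2 (75108161 to 75111949) was close to the floor of detection, with 16 and 31 fragments in libraries labelled Gata3(g/g) and 7 and 0 fragments in the WT libraries. A count of 0 allows up to 3 fragments in that library, a limit that covers counting error alone. Ly6c2 averaged 0.539 FPKM over the 4 libraries, under the minimum of 1 FPKM set for testing, so 6 of the 7 members entered the fits. Ly6c2 took 3.71% and 10.4% of the fragments assigned to the pair in libraries labelled Gata3(g/g), and 2.09% and 0% in the WT libraries. With the pair summed into a single gene, the log2 fold change with the block was -0.05.

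Ly6k (chromosome 15, 74796874 to 74799968) had the widest range of the tested members and no common direction. It measured 74.8 and 40.8 FPKM in libraries labelled Gata3(g/g), against 29.5 and 87.7 FPKM in the WT libraries. In run 1 the library labelled Gata3(g/g) was the higher, at 2.53 times WT, and in run 2 it was the lower, at 0.465 times WT. The highest library (run 2, 1446 fragments) and the lowest (run 1, 712 fragments) were both WT and differed by a factor of 2.97. Differences of opposite sign in the runs were found for 34.9% of the genes tested, and opposite differences over 1 log2 unit in both runs for 0.0685%. With 1 library per genotype and run, the reversal has no replicate and was not tested. In the GENCODE M21 annotation an antisense gene, Gm17189, runs through the locus on the opposite strand (chromosome 15, 74784065 to 74800640) and its exons cover 395 of 829 exonic bases of Ly6k (47.7%). No source used here says whether counting used the strand, and without strand the fragments of Ly6k and Gm17189 cannot be told apart within those shared bases. No other member is overlapped by an annotated gene.

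**Figure D1:**
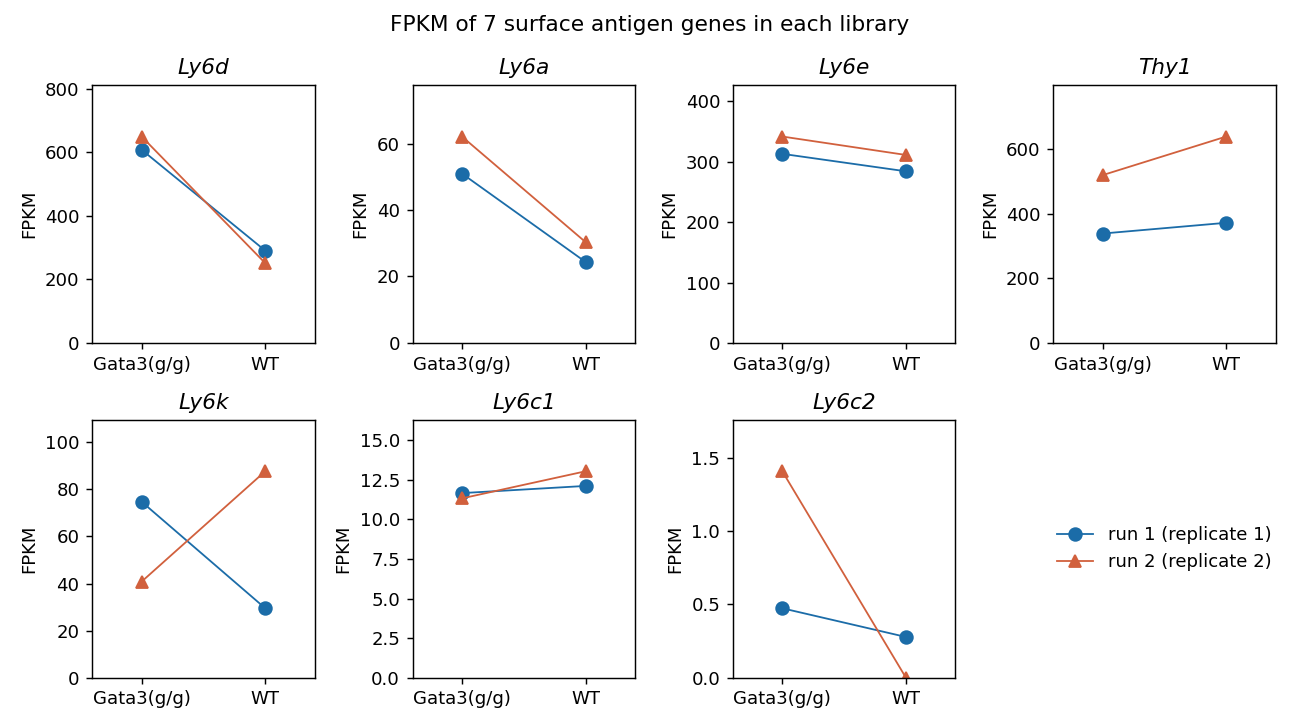
FPKM of each member in each of the 4 libraries, on linear axes that start at 0, with libraries labelled Gata3(g/g) on the left and WT on the right of each panel. Points are single libraries and lines join libraries of the same sequencing run: the lines run the same way in both runs for Ly6d, Ly6a, Ly6e, Thy1, Ly6c1 and Ly6c2, and in opposite ways for Ly6k, whose libraries stood at 74.8 and 40.8 FPKM for Gata3(g/g) and 29.5 and 87.7 FPKM for WT.

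Set against all genes, the genotype fit with the block called 705 of 10224 genes (6.9%) at a Benjamini-Hochberg adjusted p under 0.05, with 399 (3.9%) higher and 306 (2.99%) lower. Among the 6 members tested it called Ly6a and Ly6d, both higher, and none lower, and by limma with the block neither passed. The median log2 fold change was 0.13 over the 6 members and 0.01 over all genes tested. Without the block edgeR called 0 of the 10224 genes (0%), with 393 genes (3.84%) at an unadjusted p under 0.05, where DESeq2 called 88 and limma 5, and Ly6a had a log2 fold change of 1.05 and Ly6d of 1.22 there too. The genotypes did not overlap for 4 of the 6 members, Ly6a, Ly6d and Ly6e being higher and Ly6c1 lower, against 29% of all genes tested (14.2% higher, 14.8% lower). In the authors' deposited table, 456 of the 11123 genes tested there (4.1%) had a q-value under 0.05, with Ly6a and Ly6d among them. The members were chosen by genotype differences in these libraries, so these comparisons with all genes are a description and not a test. These libraries are bulk samples, in which a different share of cells that carry a transcript and a different amount of it per cell cannot be told apart.

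**Figure D2:**
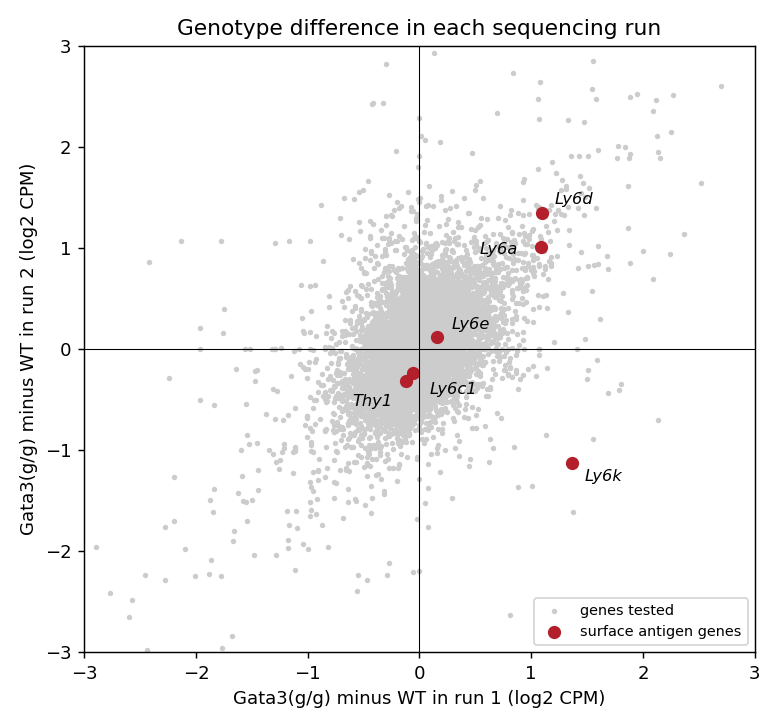
Difference between the library labelled Gata3(g/g) and the WT library in log2 CPM (counts scaled to library size), for run 1 (horizontal) and run 2 (vertical), with 1 grey point per gene tested and the 6 tested members in red. Ly6a lies at 1.09 and 1.01 and Ly6d at 1.10 and 1.34 for runs 1 and 2, Ly6e, Ly6c1 and Thy1 lie near the origin, and Ly6k lies at 1.37 and -1.13; 30 genes fall outside the plotted range.

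The difference between the sequencing runs was not used to choose the genes and could be tested. Thy1 was the single member that passed. It stood at 520 and 640 FPKM in run 2 (library labelled Gata3(g/g), then WT) against 339 and 372 FPKM in run 1, a log2 difference of 0.71 ± 0.170 (SE, adjusted p = 0.00415 by edgeR with genotype in the model) that was positive in both genotypes. The gap between runs was common, since 3560 of the 10224 genes (34.8%) passed, 1794 (17.5%) higher and 1766 (17.3%) lower in run 2. The runs did not overlap for Thy1, as for 60.7% of all genes tested. A count of 1 in 6 members is not above the background share. By limma the Thy1 difference was 0.70 with an adjusted p of 0.0550, and with run alone in the model 0.72 with an adjusted p of 0.0940; with a library left out as well it spanned 0.56 to 0.87, with adjusted p from 0.0818 to 0.319 by edgeR. Ly6a had a difference of 0.29 (adjusted p = 0.107 by edgeR), Ly6e of 0.14, Ly6c1 of 0.04 and Ly6d of -0.07, and none of these passed. Ly6k had a fitted difference of 0.33 ± 0.360 (SE), from a difference of -0.91 in libraries labelled Gata3(g/g) and 1.58 in WT libraries. For comparison, the median absolute difference between runs over all genes tested was 0.28 in libraries labelled Gata3(g/g) and 0.37 in WT. Erythroid markers moved with the runs (above), as did the neutrophil genes S100a8 and S100a9. Of the 3 monocyte and neutrophil markers tested, 2 were higher and 1 was lower in run 2 by edgeR with genotype in the model. The part of these genes in the Thy1 difference was not tested.

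**Figure D3:**
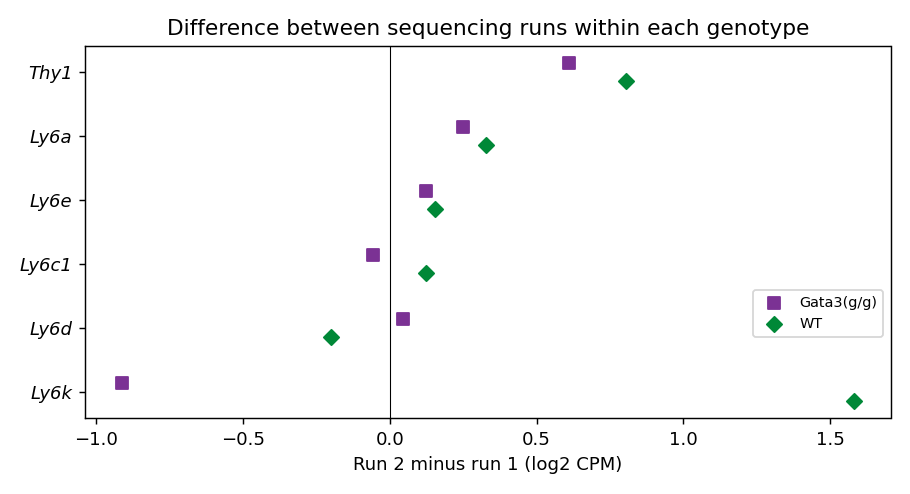
Run 2 minus run 1 in log2 CPM (counts scaled to library size) for the 6 tested members, with squares for libraries labelled Gata3(g/g) and diamonds for WT, each from 1 library per run. Thy1 lies to the right in both genotypes (0.61 and 0.81), Ly6d and Ly6c1 lie close to 0, and Ly6k lies at -0.91 in libraries labelled Gata3(g/g) and at 1.58 in WT.

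Ranked by length-scaled level (FPKM), the order of the members changed with genotype at the top and not at the bottom. In libraries labelled Gata3(g/g), Ly6d was followed by Thy1 (429 ± 128 FPKM, SD, n = 2), Ly6e (327 ± 20.3), Ly6k (57.8 ± 24.0), Ly6a (56.5 ± 7.88), Ly6c1 (11.5 ± 0.235) and Ly6c2 (0.940 ± 0.660). In WT libraries the order was Thy1 (506 ± 189 FPKM, SD, n = 2), Ly6e (298 ± 19.1), Ly6d, Ly6k (58.6 ± 41.2), Ly6a (27.4 ± 4.23), Ly6c1 (12.6 ± 0.655) and Ly6c2 (0.139 ± 0.196). Neighbours whose libraries overlapped were Thy1 with Ly6e and Ly6k with Ly6a in libraries labelled Gata3(g/g), and Ly6e with Ly6d and Ly6k with Ly6a in WT. Thy1, Ly6d and Ly6e stood above 98.3% to 98.7% of the genes tested by mean FPKM, Ly6k above 90.9%, Ly6a above 87.0% and Ly6c1 above 58.6%.

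The 6 Ly6 members span 349894 bases of chromosome 15. Within 250 kb of that span the table held 19 other genes, of which 14 averaged under 1 FPKM and 5 were tested. Lynx1, which encodes a Ly6-fold modulator of nicotinic acetylcholine receptors, lies beside Ly6d (74747856 to 74752979) and rose: it measured 4.03 and 4.05 FPKM in libraries labelled Gata3(g/g), against 1.99 and 2.35 FPKM in WT libraries (log2 fold change 0.91 ± 0.168, SE, and adjusted p = 0.00264 from edgeR's fit with the block). The other 4, Arc, Jrk, 4930572J05Rik and 2010109I03Rik, did not pass in that fit, with log2 fold changes of 0.76, -0.35, -0.08 and 0.92. With no filter on low values, edgeR with the block called Arc (adjusted p = 0.0166) and none of the rest. Of the 4, 2010109I03Rik lies between Ly6d and Ly6a. It measured 1.32 and 2.01 FPKM in libraries labelled Gata3(g/g) and 0.763 and 0.978 FPKM in WT libraries.

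**Figure D4:**
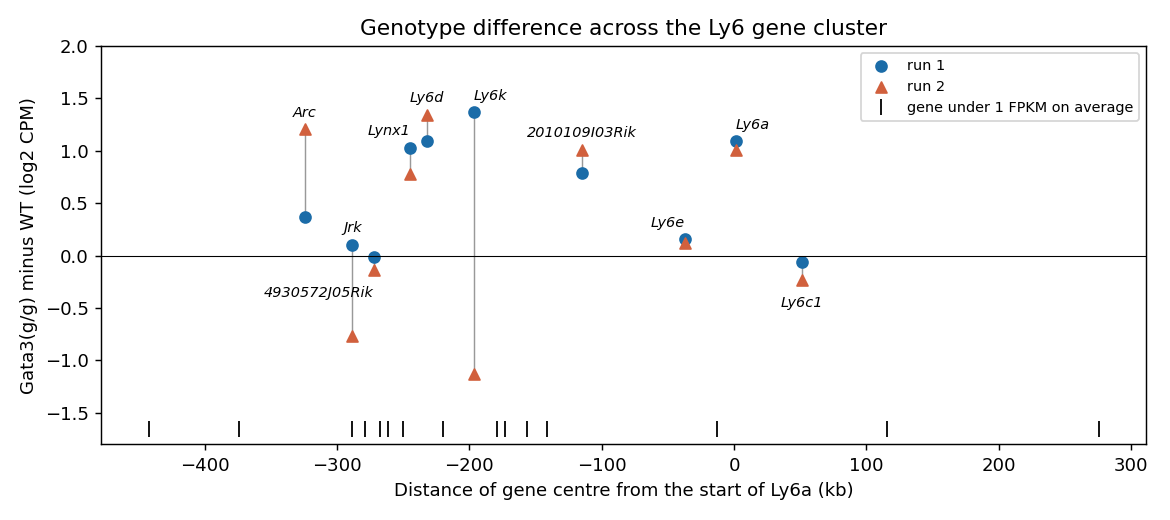
Genotype difference (libraries labelled Gata3(g/g) minus WT, log2 CPM (counts scaled to library size)) of the tested genes around the Ly6 cluster, by distance of the gene centre from the start of Ly6a in kb, with circles for run 1, triangles for run 2 and a tick for each gene under 1 FPKM on average. Ly6d, Lynx1 and Ly6a lie above 0 in both runs, as do Arc (0.37 and 1.20 for runs 1 and 2) and 2010109I03Rik (0.79 and 1.01), Ly6e and Ly6c1 lie near 0, and Ly6k lies at 1.37 in run 1 and -1.13 in run 2.

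Beyond the members, 27 of 31 listed genes of the Ly6 and urokinase receptor superfamily were in the table, of which 5 were tested. The others averaged under 1 FPKM, and 2 (Ly6g6d and Lypd4) had 0 fragments in every library. Of the 5, Lynx1 and 9030619P08Rik rose and Cd59a fell, each by edgeR with the block, a fit that called 6.9% of all genes tested. The list median was -0.50 in log2, and the remaining tested genes were lower in libraries labelled Gata3(g/g) without passing. The list as a whole therefore did not rise. 9030619P08Rik, annotated as a transcribed pseudogene at the far end of the Ly6 cluster (chromosome 15, 75427606 to 75431829), measured 4.21 and 5.87 FPKM in libraries labelled Gata3(g/g), against 0.947 and 1.06 FPKM in WT libraries (log2 fold change 2.30 ± 0.363, SE, and adjusted p = 0.000643 from edgeR's fit with the block). Cd59a, which encodes a complement inhibitor, measured 1.59 and 2.58 FPKM in libraries labelled Gata3(g/g), against 4.94 and 5.15 FPKM in WT libraries (log2 fold change -1.32 ± 0.247, SE, and adjusted p = 0.00294 from edgeR's fit with the block). Tex101, whose product is a known partner of the LY6K protein in the testis, measured at most 0.258 FPKM in any library. DESeq2 with the block called 3 of the 5 and limma with the block 0.

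All Ly6 antigens of this set and Thy1 need the GPI anchor, and the genes that build it were examined next. Of 31 genes of GPI anchor synthesis and remodelling, 29 were tested and 0 passed by edgeR with the block, by DESeq2 with the block or by limma with the block, with 2 at an unadjusted p under 0.05 by edgeR and a median log2 fold change of 0.01. Of 25 genes of other GPI-anchored surface proteins in the table, 9 were tested, 2 rose and 1 fell by edgeR with the block, where DESeq2 called 2 and limma 0. Bst1, which encodes the ectoenzyme CD157, rose and measured 69.3 and 57.3 FPKM in libraries labelled Gata3(g/g), against 34.7 and 32.5 FPKM in WT libraries (log2 fold change 0.91 ± 0.125, SE, and adjusted p = 0.000159 from edgeR's fit with the block). The prion protein gene Prnp rose as well (log2 fold change 0.74 ± 0.195, SE, and adjusted p = 0.0306 from edgeR's fit with the block), and the glypican gene Gpc1 fell (log2 fold change -1.18 ± 0.259, SE, and adjusted p = 0.00963 from edgeR's fit with the block). Cd24a, which encodes the heat stable antigen of immature thymocytes, measured 714 and 481 FPKM in libraries labelled Gata3(g/g), against 784 and 395 FPKM in WT libraries, and did not pass for genotype (log2 fold change 0.08). Of 15 interferon receptor and signalling genes, 1 rose, the kinase gene Jak2 (log2 fold change 0.57 ± 0.147, SE, and adjusted p = 0.0264 from edgeR's fit with the block), 0 fell and the list median was 0.10, and DESeq2 and limma with the block called 0.

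Markers of other cell types that carry Ly6 antigens were examined beside Ly6a, Ly6c and Ly6d. The 9 B-cell markers summed to 34.5 to 40.6 FPKM in libraries labelled Gata3(g/g) and 32.0 to 32.1 FPKM in WT libraries. Most of this came from Cd79b, and Pax5 reached at most 1 fragment in a library. Of the 9, 2 were tested, with a median log2 fold change of 0.55 by edgeR with the block. Of these 2, 0 passed by that fit, also at an unadjusted p under 0.05, or by DESeq2 or limma with the block. The 11 monocyte and neutrophil markers summed to 19.7 to 64.0 FPKM in libraries labelled Gata3(g/g) and 11.9 to 50.7 FPKM in WT libraries. Of the 3 tested, 1 was higher and 0 lower by edgeR with the block, with a list median of -0.08. DESeq2 with the block called 1 and limma 0. Lyz2, the lysozyme gene, was higher (log2 fold change 1.27 ± 0.198, SE, and adjusted p = 0.000610 from edgeR's fit with the block), while S100a8 (-0.08) and S100a9 (-0.80) did not pass and Csf1r measured at most 0.152 FPKM. Of 8 early progenitor markers, 4 were tested and 2, Cd44 (1.23) and Sfpi1 (1.17), were higher in log2 by edgeR with the block. The list median was 0.72, and DESeq2 with the block called 1 and limma 0. This list summed to 16.3 to 19.5 FPKM in libraries labelled Gata3(g/g) and 10.7 to 13.3 FPKM in WT libraries. The 6 plasmacytoid dendritic cell markers summed to 98.6 to 101 FPKM in libraries labelled Gata3(g/g) and 96.8 to 104 FPKM in WT libraries, with Klk1 at 0 in every library. Of the 4 tested, 1 passed by edgeR, by DESeq2 and by limma with the block, 3 had an unadjusted p under 0.05 by edgeR, and the list median was 0.02. The gene called by edgeR was Cox6a2, a cytochrome oxidase subunit gene, at 15.3 and 19.2 FPKM in libraries labelled Gata3(g/g) and 1.27 and 2.54 FPKM in WT libraries. Bst2, of the same list, went the other way in both runs (-0.14 and -0.42 in log2 CPM) and did not pass. The 7 stromal markers summed to 32.4 to 33.9 FPKM in libraries labelled Gata3(g/g) and 24.8 to 32.8 FPKM in WT libraries. The 7 markers of later alpha-beta thymocytes summed to 14.0 to 30.8 FPKM in libraries labelled Gata3(g/g) and 8.17 to 39.4 FPKM in WT libraries. By edgeR with the block 2 of the 4 tested were higher and 0 lower (list median 0.43), where DESeq2 with the block called 1 and limma 0. At an unadjusted p under 0.05 edgeR with the block had 3 of the 4. The list was mixed: Cd69 did not pass and was lower in libraries labelled Gata3(g/g) in both runs (-0.75 and -0.23 in log2 CPM), while Cd8a and Cd8b1 were higher. Cd8a measured 1.71 and 1.37 FPKM in libraries labelled Gata3(g/g) and 0.674 and 0.592 FPKM in WT libraries (log2 fold change 1.28), and Cd8b1 7.61 and 7.22 FPKM in libraries labelled Gata3(g/g) and 3.63 and 1.11 FPKM in WT libraries (1.77). The part of these cells in the Ly6a and Ly6d differences was not tested.

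The tested genes with the most similar profile over the 4 libraries were found by Euclidean distance between centred log2(FPKM + 1) values. For Ly6a they were Il31ra (distance 0.125) and Ppp2r3a (0.128), for Ly6d Hoxa5 (0.0849) and Tspan2 (0.0884), for Ly6e Scyl3 and Tex2, for Ly6c1 Bicd2 and Mtif2, and for Thy1 Lonrf1 and Esf1. Hoxa5, for example, measured 5.85 and 6.51 FPKM in libraries labelled Gata3(g/g), against 2.18 and 1.69 FPKM in WT libraries. Ly6k had the least similar neighbours, Scgb3a1 (0.441) and A130077B15Rik (0.584). With 4 libraries and 10223 other genes, these matches are a description of these libraries.

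Promoter sequence was held for 2 of the 7 members, Ly6c1 and Ly6c2, in the RefSeq promoter table (GRCm38.p6, the assembly of mm10), and is shown because, most fragments of the pair were assigned to Ly6c1, a split that is uncertain as given above. The 250 bases before the most upstream annotated start are printed 5′ to 3′ on the minus strand, chr15:75048838-75049087 for Ly6c1 and chr15:75111972-75112221 for Ly6c2, with motif matches in capitals.
Ly6c1: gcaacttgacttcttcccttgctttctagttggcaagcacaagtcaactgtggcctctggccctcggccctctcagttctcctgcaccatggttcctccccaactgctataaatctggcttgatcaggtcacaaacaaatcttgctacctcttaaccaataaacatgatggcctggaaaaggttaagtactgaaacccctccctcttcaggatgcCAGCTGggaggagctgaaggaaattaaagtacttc
Ly6c2: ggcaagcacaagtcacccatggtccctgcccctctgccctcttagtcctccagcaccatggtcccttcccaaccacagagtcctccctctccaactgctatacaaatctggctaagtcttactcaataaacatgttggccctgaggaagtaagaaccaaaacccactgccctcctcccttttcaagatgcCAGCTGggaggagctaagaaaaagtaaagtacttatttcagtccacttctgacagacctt
The whole 300-base table windows were searched on both strands for the GATA motifs AGATAA and TGATAA, the gamma-activated site TTCNNNGAA, the interferon-stimulated response element core and the E-box CAGCTG. Each promoter held a single match, to CAGCTG, which 16.3% of the 32851 promoter windows in the table hold. Of all windows, 11.2% hold AGATAA, 9.05% hold TGATAA, 8.30% hold TTCNNNGAA and 3.44% hold the interferon-stimulated response element core, and none of these letters occurred in either promoter. A match is a string of letters and not a binding site.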

How the data were processed

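RNA was measured by sequencing in 4 libraries of sorted DN3 thymocytes, 2 per genotype. Per the submitters' processing notes, TopHat2 2.0.8b, Bowtie2 2.1.0, Cuffdiff 2.1.1 and the mm10 genome were used; no source used here gives the annotation or strand setting. Per the file headers, the deposited per-library table gives an estimated count of fragments (unscaled) and an FPKM value for every gene. The authors' deposited comparison table adds genotype means in FPKM with their log2 ratio, its p-value and its q-value.

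Of 23285 genes, 3 with loci too deep for estimation were dropped and 5 failed estimates stayed in. Estimated counts, of which 97.7% to 98.9% per library lay within 0.01 of a whole number, were rounded. The 10224 genes that averaged 1 FPKM or more were tested with edgeR 4.0.16 (R 4.3.3), by a two-sided quasi-likelihood F test. TMM factors were 0.983 to 1.02, and the Benjamini-Hochberg adjustment ran over all genes tested. The fits were also run on simulated data. For the fit with the block, both genotypes there were given the same run difference, so that run does not cover run differences that vary with genotype. Library totals of 14331705 to 26901913 fragments put a floor of 3 fragments at 0.112 to 0.209 CPM, for counting error alone. The main genotype model had no block. The labels' sequence identifiers put equal replicate numbers in the same run, so the numbers pair the libraries; the run differences of the genotypes correlated at 0.754 (Pearson) across genes, which are not independent replicates. Fold changes with the replicate block (1 residual degree of freedom) are therefore printed. The SE is the unshrunken absolute log2 fold change over the square root of F. Within-run differences are log2 CPM with a prior count of 2. Alternatives used DESeq2 1.42.0, limma 3.58.1 on log2(FPKM + 1) or log2(FPKM + 0.1), other scalings and filters, and each library left out. Members and gene lists were chosen with earlier results of these data known. Named were the members, up to 4 called genes per list, the genes of the Ly6 region that were tested and the 2 nearest profiles per member; values of further genes (Cd24a, Tex101 and marker genes, Il2ra and Cox6a2 included) were chosen after they were seen. Coding sequences came from GENCODE M21 (mm10), as the principal transcript of each gene, globally aligned (match 1, mismatch -1, gap opening -3, extension -1).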

Additional observations from a re-analysis of the deposited data

Results flagged for a closer look

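Ly6k differed by genotype in opposite directions in the sequencing runs, by 1.37 in run 1 and by -1.13 in run 2 (libraries labelled Gata3(g/g) minus WT, log2 CPM). Each value compares 1 library with 1 library, so the difference between the runs was not tested. Of the 10224 genes tested, 7 (0.0685%) had differences of opposite sign and over 1 log2 unit in both runs, and 3 of these, Ly6k included, were higher in run 1 and lower in run 2. The others with that order were the heat shock gene Hspa1b and the small nuclear RNA gene Rnu12. The antisense gene Gm17189 overlaps 47.7% of the exonic bases of Ly6k, and its part in the values was not tested.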

How the results depend on the processing

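The genotype count depended on the model. Without the block, edgeR called 0 genes under TMM, DESeq2 size factors, no scaling or a minimum of 5 FPKM, 58 with no filter, and 1 to 11 when a library was left out; DESeq2 called 88 and limma 5 with a pseudocount of 1 and 5 with 0.1. With the replicate block edgeR called 705, DESeq2 417 and limma 18, and edgeR 674 with no scaling and 988 with no filter, settings added after the data were seen. No scaling with the block put 464 calls higher and 210 lower, against 399 and 306. Ly6a ranged from 0.88 to 1.22 and Ly6d from 1.12 to 1.30 in log2 over 19 settings, Ly6a passing in 5 and Ly6d in 6; with the block neither passed by limma. Ly6k had -0.02 without the block and turned to 0.12 with it (0.17 with no scaling, 0.12 with no filter, 0.12 by DESeq2, 0.11 by limma, 0.12 with Ly6c1 and Ly6c2 summed) and to 0.033 with no scaling, 0.049 with no filter and 0.11 and 0.12 by limma; leaving out a library gave -0.62 to 0.98. Thy1 ran from -0.60 to 0.22 when a library was left out. The run count was 3560, and 751 with run alone, 2263 by DESeq2, 1451 by limma and 208, 1536, 82 and 215 with run alone and, in turn, Gata3(g/g) replicate 1, Gata3(g/g) replicate 2, WT replicate 1 and WT replicate 2 left out. Left-out libraries leave genotype and run unequally shared: run differences then spanned -0.31 to 0.93 for Ly6a (negative in 2, -0.31 and -0.16), -0.078 to 0.16 for Ly6c1, -0.85 to 0.63 for Ly6d (positive in 2, 0.63 and 0.50) and -0.38 to 1.13 for Ly6k (negative in 2, -0.38 and -0.23), and Thy1 spanned 0.56 to 0.87 and passed in none of the 4. With no filter the run difference turned to -0.12 for Ly6c1 and -0.017 for Ly6e, while the median of the genes tested moved to -0.17 from -0.01. Ly6c2, at 0 to 31 fragments, was limited by depth.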
